A study of Drosophila melanogaster with 24 samples.

Results

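A set of 8 genes that mark neurons in Drosophila melanogaster was followed through RNA-seq libraries of the female abdominal carcass: elav, nSyb, Syx1A, Syt1, Rab3, brp, cac and para. They were chosen by symbol as markers of neurons, 8 of 14220 genes quantified, and not by a threshold on their values. Earlier results of these data were known when they were chosen. Each of the 24 libraries came from 10 carcasses of mated females aged about 4 days, and a carcass held abdominal fat body and body wall, with the neurons, oenocytes and tubule fragments left in it. The libraries formed 4 groups of 6: Selected populations S1 to S6 raised as larvae on poor diet, the same Selected populations raised on standard diet, Control populations C1 to C6 raised on poor diet, and the same Control populations raised on standard diet. The series title ties the evolutionary regimes to larval undernutrition. Yeast, sugars and cornmeal in the poor diet were diluted to 0.25 of their standard concentrations, and adults of all groups were kept on standard food from day 1, so that diet here means larval diet. Each population gave 1 pooled library per diet, so a regime comparison rests on 6 against 6 populations and a diet comparison on 12 pairs. The sample titles name the other diet in 24 of 24 libraries and the other regime in 12. Regime, diet and population were taken from the sample characteristics, and every direction below rests on them: with the diets of the titles, the group means would exchange places. The pairs of libraries and the members of each regime would change too, and with them the counts of populations, the errors and the p-values.

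Neurons release transmitter when an action potential, carried by voltage-gated sodium channels, opens calcium channels at the synapse and vesicles fuse with the membrane. In the adult fly the cell bodies of motor neurons lie in the thoracic nerve cord, while the abdominal body wall holds their axons and endings and the cell bodies of sensory neurons. Of the genes followed here, elav encodes an RNA-binding protein of neurons that acts on splicing and on the choice of 3′ ends. The vesicle membrane protein encoded by nSyb and the plasma membrane protein encoded by Syx1A are SNAREs, which pull the membranes together. Syt1 encodes the calcium sensor of fusion, Rab3 a small GTPase of synaptic vesicles, brp the scaffold of the active zone, cac the pore subunit of the presynaptic calcium channel and para the voltage-gated sodium channel.

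In the annotation BDGP6.54, elav (FBgn0260400) lies on chromosome X at 509235 to 523226, para (FBgn0285944) on X at 16455027 to 16533096 and cac (FBgn0263111) on X at 11931280 to 11985087, all on the minus strand. The other genes on the minus strand are nSyb (FBgn0013342) on 3L at 1630348 to 1637752, Syt1 (FBgn0004242) on 2L at 2772327 to 2799979, Syx1A (FBgn0013343) on 3R at 24101600 to 24105763 and Rab3 (FBgn0005586) on 2R at 10721335 to 10729203. On the plus strand, brp (FBgn0259246) lies on 2R at 9503765 to 9541565, and 9 of its 14 annotated transcripts were quantified. Exons of elav share 673 bp with arg on the opposite strand and 2994 bp, or 27.9% of the exonic length of elav, with the non-coding gene lncRNA:enrr on the same strand, which was not quantified. Exons of Syx1A share 447 bp, or 10.7% of its exonic length, with eIF4EHP on the same strand. Reads from these shared stretches cannot be told apart by gene, so levels of elav and Syx1A are uncertain to that extent.

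All 8 genes were detected in all 24 libraries, at low levels. Total estimated counts were 29.4 to 31.5 × 1e6 in 23 libraries and 22.4 × 1e6 in Selected population S2 on standard diet, and the smallest count of any of the 8 genes in a library was 41, for cac in Control population C3 on standard diet. Per transcript length, in TPM (counts divided by transcript length and scaled to a common library total, mean ± SD over the 24 libraries), the order was Syx1A at 6.86 ± 2.32, nSyb at 4.71 ± 1.77, Syt1 at 4.01 ± 1.33, elav at 2.50 ± 0.515, Rab3 at 1.67 ± 0.763, brp at 0.596 ± 0.336, para at 0.451 ± 0.204 and cac at 0.385 ± 0.180. Syx1A thus stood above 54.9% of the 14220 genes and cac above 31.4%. Every neighbouring pair in this order passed a test against the spread between populations (exact sign-flip permutation test of the log2 TPM ratio over 12 populations, two-sided, adjusted over the 7 pairs). The pairs were taken from the order of the same TPM values, a choice that the adjustment does not cover. The closest step was nSyb above Syt1, in 8 of 12 populations, by 0.21 ± 0.32 on the log2 TPM scale (SD, n = 12, adjusted p = 0.0464, exact). The widest step was Rab3 above brp, in 12 of 12 populations, by 1.54 ± 0.48 on the log2 TPM scale (SD, n = 12, adjusted exact permutation p = 0.00171).

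Detection of the genes on other lists was counted, which is not a check of the label neuron. All 12 further neuronal identity genes listed, such as onecut and Appl, averaged at least 1 CPM, the count scaled to a common library total without regard to length. So did 29 of 31 vesicle release genes and 23 of 26 ion channel genes quantified. In other nervous system lists fewer genes did: 19 of 31 neuropeptide, 10 of 16 transmitter synthesis, 16 of 32 transmitter receptor and 9 of 19 sensory neuron genes. Lists of other tissues also reached this level, with 20 of 20 muscle, 14 of 14 germline and 9 of 9 hemocyte genes. Among glial genes it was 12 of 13, and among midgut genes 15 of 20. The counts therefore show detection and cannot tell neurons from other tissues. The share over all genes was not set beside them. Of 11 photoreceptor genes quantified, only norpA, a phospholipase C also used outside the eye, averaged at least 1 CPM, and its level was 23.1 to 44.0 CPM. The main rhodopsin gene ninaE lay between 0 and 3.12 CPM with a median of 0.308 CPM, and none of the 11 genes was at 0 in every library.

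Several of the genes were high together in 3 libraries, which were set apart after the values were seen because brp was highest in them. Averaged over the 8 genes, with each gene's log2 CPM in SD units from its mean over 24 libraries, S3 on poor diet stood at 1.67, C2 on poor diet at 1.28 and S2 on standard diet at 0.78, and this mean showed no gap after them, since C3 on poor diet stood at 0.74 and S5 on poor diet at 0.67. In the 3 libraries brp measured 13.3, 10.5 and 9.15 CPM, against 6.08 CPM or less in the other 21. S3 on poor diet was among the 3 highest libraries in 6 of the 8 genes, C2 on poor diet in 4 and S2 on standard diet in 3, as was S6 on standard diet. For elav, S3 on poor diet measured 19.4 CPM, close to the median of the poor libraries. Its sister library, S3 on standard diet, had 3.68 CPM of brp, and the mean over the 8 genes there was -0.82 SD. The 3 libraries thus differ in diet and regime, and none shares a population with another.

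Of the other nervous system lists, 5 of 7 ranked among the 5 highest of 24 in all 3 libraries, and 2 did not. The mean log2 CPM of vesicle release genes and of ion channel genes ranked 1, 2 and 3 of 24 in S3 on poor diet, C2 on poor diet and S2 on standard diet, and neuronal identity genes ranked 1, 5 and 2. Transmitter synthesis genes also ranked 1, 5 and 2, and transmitter receptor genes 1, 3 and 2, in the same order of libraries. Sensory neuron genes ranked 4, 6 and 20, and neuropeptide genes 2, 13 and 4. Glial genes ranked 3, 4 and 5 there, oenocyte genes 1, 4 and 13, and muscle genes 4, 14 and 16. Germline genes ranked 19 and 23, and midgut genes 21 and 22, in S3 and C2 on poor diet, whereas S2 on standard diet ranked 8 and 14. The depth of S2 on standard diet was the lowest of the 24.

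**Figure D1:**
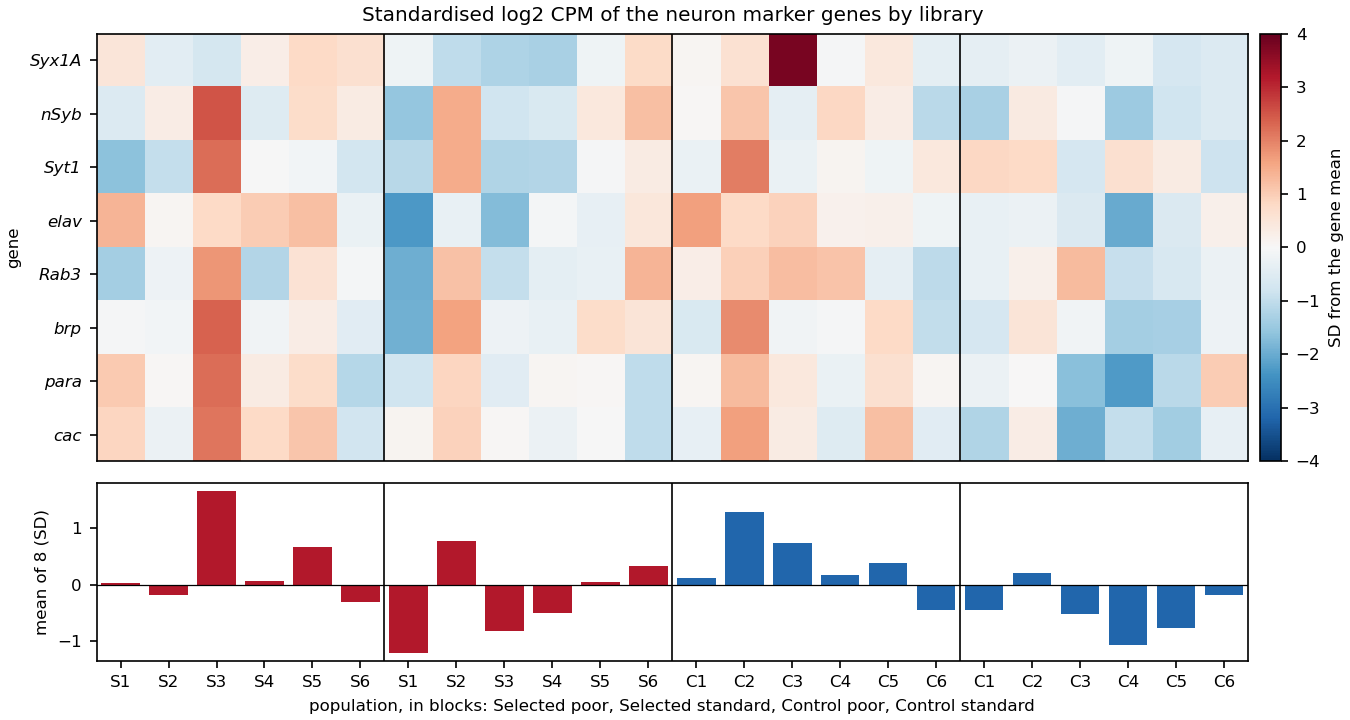
The upper panel colours each gene's log2 CPM in each library by its distance, in SD, from that gene's mean over 24 libraries. The lower panel gives the mean of the 8 genes, with Selected in red and Control in blue. The columns S3 on poor diet, C2 on poor diet and S2 on standard diet are high across most genes, and Syx1A in C3 on poor diet stands alone.

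A second kind of high value concerned 1 gene. Syx1A measured 41.9 CPM in C3 on poor diet, against 18.1 to 22.2 CPM in the other 5 Control libraries on poor diet. Both main transcripts were highest there: Syx1A-RC had 995 estimated counts, against 590 or less elsewhere, and Syx1A-RA had 326, against 241 or less. The mean over the 8 genes was 0.74 SD in that library, and brp was at 3.79 CPM.

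For the genes with annotated alternatives, estimated counts fell mostly on transcripts with long 3′ UTRs. Of the 60 quantified para transcripts, 8 have a 3′ UTR of at least 1000 bp, and these held 99.6% of its counts. A single transcript, para-RBG, whose 3′ UTR of 8761 bp is the longest of the 60, held 98.4%, between 94.7% and 100% in each library. The elav transcript with the longest 3′ UTR, elav-RD with 8557 bp, held 89.3% of elav counts, and the other 3 transcripts have 3′ UTRs of 942 bp or less. Reads of lncRNA:enrr may be counted in elav, and their part in this share was not tested. A long transcript collects more reads per molecule, and on the TPM scale, which corrects for length, elav-RD held 66.5% and para-RBG 97.3%.

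The same pattern held for the SNARE, GTPase and scaffold genes. Syx1A-RC, the longest of 3 transcripts, held 75.9% of Syx1A counts, and Rab3-RA, the longer of 2, held 81.7% of Rab3 counts. For nSyb, the 4 of 8 transcripts with a 3′ UTR of at least 1000 bp held 89.1% of counts, led by nSyb-RJ with 63.3%. For brp, the 4 of 9 such transcripts held 90.0%, led by brp-RM with 42.7%. On the TPM scale these shares were lower: 64.3% for Syx1A-RC, 70.8% for Rab3-RA, and 74.7% and 83.6% for the long transcripts of nSyb and brp. All 18 transcripts of cac and all 8 of Syt1 have a 3′ UTR of at least 1000 bp. Counts of cac were divided over cac-RF with 33.3%, cac-RI with 31.0% and cac-RN with 26.2%. How firmly reads could be assigned among such similar transcripts was not given with the files, and brp-RM and cac-RF ranged down to 0% of their gene in single libraries.

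**Figure D2:**
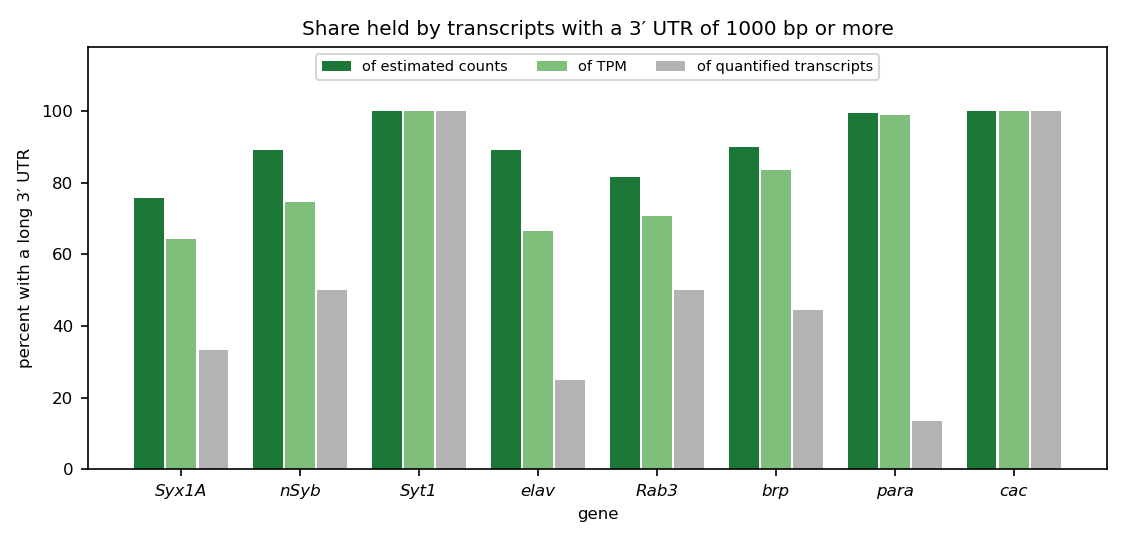
Bars give, for each of the 8 genes in order of TPM, the percent of estimated counts, of TPM and of quantified transcripts that belong to transcripts with a 3′ UTR of 1000 bp or more. In para 13.3% of transcripts held 99.6% of counts, and in Syt1 and cac all transcripts pass the length, so their bars are at 100%.

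The estimated counts of Syt1 were largely assigned to a transcript with a shortened reading frame. Syt1-RG held 76.2% of Syt1 counts and between 49.5% and 93.3% in each library. Its exon 8 of 12, at 2L:2789347-2789946 on the minus strand, is 600 bp long and overlaps no exon of another Syt1 transcript. The annotated coding sequence of Syt1-RG is 993 bp, against 1416 bp in Syt1-RI, the transcript with the next largest share at 16.6%. Whether the reads behind Syt1-RG lie in that exon cannot be read from counts per transcript.

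Syt1-RG and the other Syt1 transcripts also varied differently across libraries, in a split made after the values were seen. Over the 24 libraries, the log2 CPM of the 7 other Syt1 transcripts combined correlated with the mean standardised log2 CPM of the other 7 neuron marker genes at r = 0.87, whereas that of Syt1-RG correlated at r = 0.13. Without the 3 libraries described above as high, the values were 0.78 and -0.27. These are descriptions over libraries that share populations, and carry no test. Syt1-RG averaged 11.8 ± 4.43 CPM on poor diet and 12.96 ± 4.02 CPM on standard diet (SD, n = 12 each). The other Syt1 transcripts averaged 4.98 ± 3.95 CPM on poor diet and 2.84 ± 1.90 CPM on standard diet (SD, n = 12 each), a mean log2 difference of 0.77 ± 1.06 (SD), with 9 of 12 populations above 0. Adjusted over the 16 such comparisons, this difference did not pass (adjusted exact permutation p = 0.10), and for Syt1-RG the adjusted exact permutation p was 0.618. The share of Syt1 counts on Syt1-RG was 71.7 ± 11.2% on poor diet and 82.1 ± 8.73% on standard diet (SD, n = 12 each), with the higher share on poor diet in 2 of 12 populations. Among the 16 tests of a leading transcript's share, for diet and for regime, this had the smallest p, and none passed (adjusted exact permutation p = 0.227).

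The question for diet was whether food in larval life left a difference in adult levels. On poor diet the fitted value was above that on standard diet for all 8 genes, with a median log2 fold change of 0.32, but in edgeR's quasi-likelihood test with population as block and Benjamini-Hochberg adjustment none passed 0.05. Of all 10184 genes tested, 1.13% passed and 44.3% had a value above 0, with a median of -0.03. At an unadjusted p below 0.05 stood 4 of the 8 genes, against 17.6% of all genes. In bulk carcass RNA, a change in the number of neurons or axons and a change in RNA per cell cannot be told apart.

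The RNA-binding protein gene elav had the smallest p of the 8. Its level was 15.4 at the lowest, 19.4 at the median and 23.5 CPM at the highest on poor diet, against 9.75, 15.1 and 17.9 CPM on standard diet. The ranges overlapped, and 10 of 12 populations had more elav on poor diet, where 5.85% of all genes were higher in at least 10. Its mean was 18.9 ± 2.62 CPM on poor diet and 14.3 ± 2.58 CPM on standard diet (SD, n = 12 each), a log2 fold change of 0.42 ± 0.11 (SE, edgeR adjusted p = 0.0870). Split by transcript as for Syt1, elav-RD averaged 17.1 ± 2.87 CPM on poor diet and 12.5 ± 2.20 CPM on standard diet (SD). The mean log2 difference was 0.45 ± 0.44 (SD), with 9 of 12 populations above 0 (adjusted exact permutation p = 0.0547). The other elav transcripts averaged 1.82 and 1.76 CPM in that order of diets. Their log2 difference was 0.17 ± 0.79 (SD), with 4 of 12 above 0 (adjusted exact permutation p = 0.618). The part of reads shared with lncRNA:enrr was not tested. The call for elav depended on the method. DESeq2, which called 5.38% of all genes, gave an adjusted p of 0.0125. Limma with population as a random effect, which called 1.62%, gave 0.0193, and edgeR with germline and midgut marker scores as covariates, which called 4.55%, gave 0.0383, while over all 19 alternatives the adjusted p lay between 0.0125 and 0.339 and the log2 fold change between 0.35 and 0.47.

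Both channel genes had larger differences with wider spread. The calcium channel gene cac measured 2.20, 3.91 and 7.73 CPM (lowest, median and highest) on poor diet, against 1.30, 2.71 and 4.55 CPM on standard diet. The groups overlapped, and 10 of 12 populations had more cac on poor diet, with a log2 fold change of 0.60 ± 0.19 (SE, edgeR adjusted p = 0.145). DESeq2 gave cac an adjusted p of 0.0446, the lowest of a range that reached 0.302 over 19 alternatives. The sodium channel gene para measured 3.23, 6.36 and 14.6 CPM on poor diet, against 1.94, 4.64 and 8.44 CPM on standard diet. Here 9 of 12 populations were higher on poor diet, where 12.2% of all genes were higher in at least 9, and the log2 fold change was 0.59 ± 0.21 (SE, edgeR adjusted p = 0.194).

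Among the fusion genes, the plasma membrane SNARE gene Syx1A had the same sign in the most populations. Syx1A measured 17.1, 21.0 and 41.9 CPM on poor diet, against 15.1, 18.2 and 22.9 CPM on standard diet, and the poor value was the higher one in 11 of 12 populations, as in at least 11 for 2.08% of all genes. Its log2 fold change was 0.26 ± 0.09 (SE, edgeR adjusted p = 0.183). In the same split by transcript as for Syt1, Syx1A-RC averaged 17.3 ± 4.78 CPM on poor diet and 13.2 ± 1.69 CPM on standard diet (SD, n = 12 each). This was the 1 comparison of those 16 that passed, with 10 of 12 populations higher on poor diet (adjusted exact permutation p = 0.0391), in a test chosen after the values were seen. The other Syx1A transcripts averaged 4.85 ± 2.78 CPM on poor diet and 4.78 ± 1.48 CPM on standard diet (SD). Their mean log2 difference was -0.16 ± 0.66 (SD), with 5 of 12 populations higher on poor diet (adjusted exact permutation p = 0.618).

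The vesicle SNARE gene nSyb measured 6.98, 11.5 and 25.9 CPM on poor diet, against 5.88, 8.43 and 17.9 CPM on standard diet, and 8 of 12 populations had more nSyb on poor diet (log2 fold change 0.31 ± 0.19, SE, edgeR adjusted p = 0.392). For the scaffold gene brp the levels were 2.50, 3.92 and 13.3 CPM on poor diet, against 1.55, 3.68 and 9.15 CPM on standard diet, again with 8 of 12 populations higher on poor diet (log2 fold change 0.33 ± 0.27, SE, edgeR adjusted p = 0.520). In both genes the highest poor library, S3, lay far above the median of the poor libraries. The vesicle GTPase gene Rab3 had a log2 fold change of 0.17 ± 0.22 (SE, edgeR adjusted p = 0.690) and 7 of 12 populations had more on poor diet. Syt1 as a whole gene had 0.04 ± 0.20 (SE, edgeR adjusted p = 0.918), with 5 of 12 populations higher on poor diet. Leaving out population S3 alone moved the diet value of Rab3 to 0.037, of nSyb to 0.19, of brp to 0.19 and of Syt1 to -0.093. Without populations S2, S3 and C2, a setting chosen after the values were seen, 7 of the 8 diet values stayed above 0 with a median of 0.27. In it elav had 0.41 ± 0.13 (SE, edgeR adjusted p = 0.339), nSyb 0.25, brp 0.26, Rab3 0.085 and Syt1 -0.06, and no gene passed in edgeR.

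**Figure D3:**
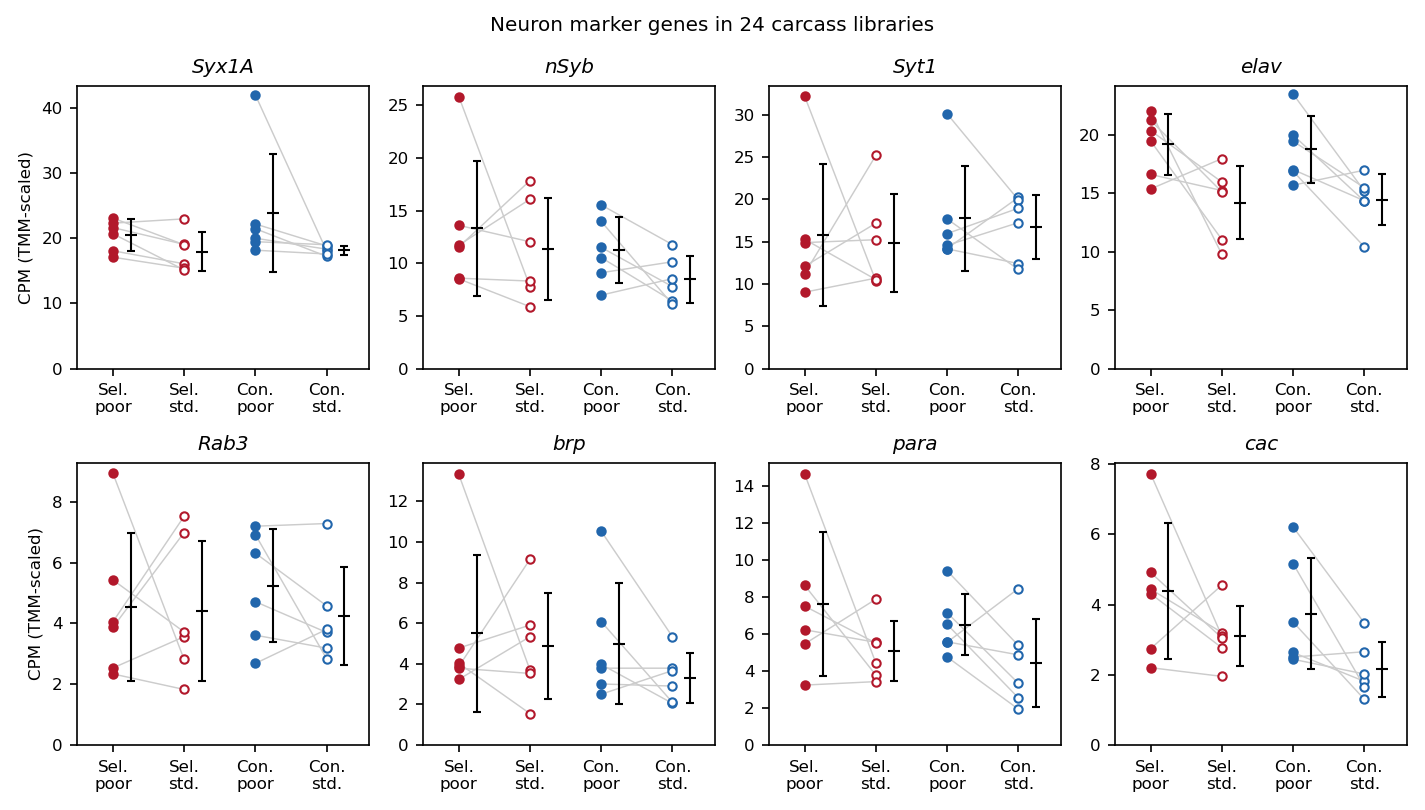
CPM of each gene in every library, by group (Selected poor, Selected standard, Control poor, Control standard), with filled points for poor diet and open points for standard diet. Grey lines join the 2 libraries of a population, and black bars give the mean ± SD of 6. Groups overlap in every gene, and single libraries stand out, such as Syx1A at 41.9 CPM in 1 Control library on poor diet.

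**Figure D4:**
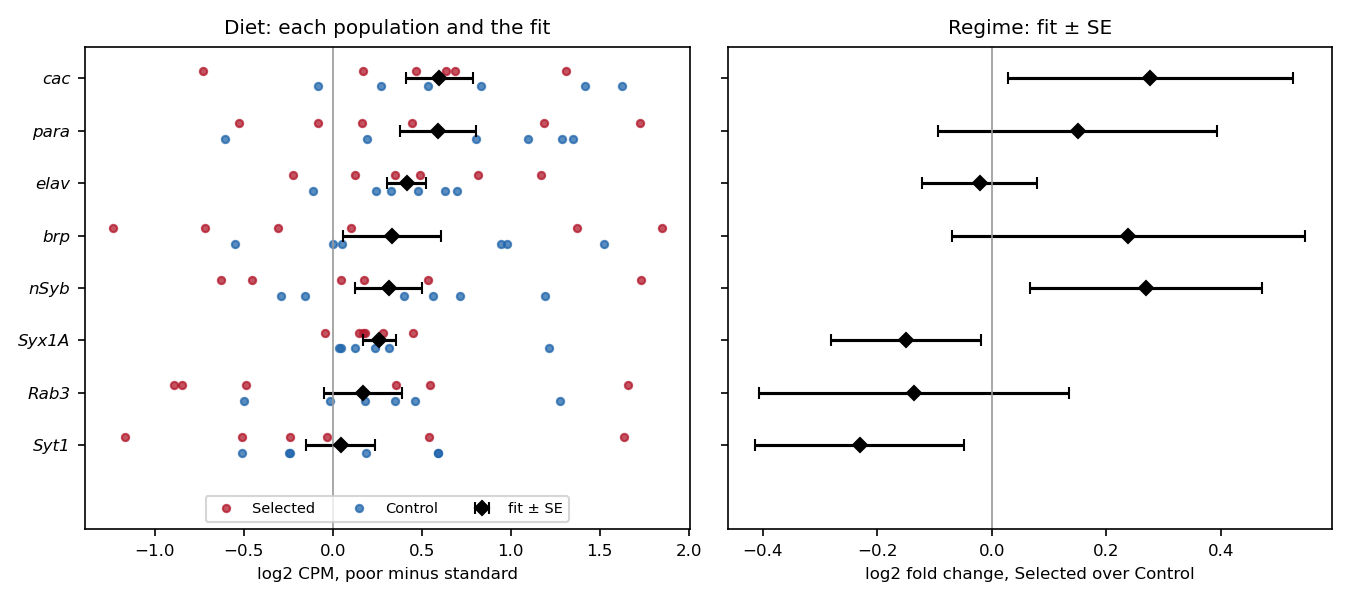
The left panel plots, for each gene, the log2 CPM difference between poor and standard diet in each of the 12 populations and the fitted log2 fold change ± SE. The right panel plots the fitted log2 fold change ± SE of Selected over Control. All 8 diet values lie above 0, from 0.04 for Syt1 to 0.60 for cac, and regime values lie on both sides of 0.

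Further genes of the nervous system passed the diet test in a share of 1.30%, close to the 1.13% of all genes. The lists of neuronal identity, vesicle release, ion channels, transmitter synthesis, neuropeptides, transmitter receptors and sensory neurons together had 154 genes tested, of which 130, or 84.4%, had a value above 0, with a median log2 fold change of 0.26. Of these 154 genes, 2 rose and 0 fell, and 24, or 15.6%, had an unadjusted p below 0.05, against 17.6% of all genes. Ace, the enzyme that breaks down acetylcholine, averaged 21.2 ± 10.5 CPM on poor diet and 12.4 ± 5.42 CPM on standard diet (SD, n = 12 each). Its log2 fold change was 0.72 ± 0.13 (SE, edgeR adjusted p = 0.0284), with 11 of 12 populations above 0. The sensory channel gene ppk26, which acts in mechanical nociception of larvae, averaged 3.63 ± 0.547 CPM on poor diet and 2.49 ± 0.540 CPM on standard diet (SD, n = 12 each). All 12 of 12 populations had more of it on poor diet, as for 0.422% of all genes (log2 fold change 0.56 ± 0.12, SE, edgeR adjusted p = 0.0389).

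GluRIID, which also rose, is not among the 154 genes: it comes from the list of postsynaptic genes of the neuromuscular junction, which muscle expresses. This essential glutamate receptor subunit averaged 9.47 ± 1.32 CPM on poor diet and 7.25 ± 0.892 CPM on standard diet (SD, n = 12 each). Its difference was above 0 in 11 of 12 populations (log2 fold change 0.38 ± 0.08, SE, edgeR adjusted p = 0.0494). All 10 genes of that list had a value above 0, with a median of 0.22, and the other 9 did not pass. These calls lie close to the threshold: with each population left out in turn, Ace passed in 6 of 12 fits (edgeR adjusted p 0.0281 to 0.0807), ppk26 in 2 (0.0349 to 0.0986) and GluRIID in 1 (0.0464 to 0.121), and over all 19 alternatives the adjusted p reached 0.236, 0.274 and 0.282 in that order of genes, without populations S2, S3 and C2. Values above 0 on poor diet were found for 12 of 12 neuronal identity genes (median 0.29), 28 of 31 vesicle release genes (median 0.21), 23 of 26 ion channel genes (median 0.27) and 13 of 13 sensory neuron genes (median 0.24). For neuropeptide genes it was 18 of 26 (median 0.14), for transmitter synthesis 13 of 15 (median 0.25) and for transmitter receptors 23 of 31 (median 0.28). Among the 154 genes, the smallest adjusted p of those that did not pass belonged to Hk, a potassium channel subunit, at 0.40 ± 0.11 (SE, edgeR adjusted p = 0.0943), and Octbeta2R, an octopamine receptor, at 0.41 ± 0.12 (SE, edgeR adjusted p = 0.124).

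Markers of other tissues were set beside these values. Summed levels of 12 fat body genes were 10619 to 75048 CPM on poor diet and 46305 to 127928 CPM on standard diet. The largest medians in this sum were those of Yp1, Yp2 and Yp3, at 26494, 11688 and 5845 CPM over the 24 libraries. Of the 12 fat body genes, 5 had a diet value above 0, against 44.3% of all genes. In edgeR 4 of the 12 fell on poor diet while 0 rose, where 0.265% of all genes fell and 0.864% rose. Glial genes summed to 756 to 1008 CPM on poor diet and 522 to 1032 CPM on standard diet, with 10 of 13 values above 0, a median log2 fold change of 0.18 and none passing the edgeR test (4 of 13 at an unadjusted p below 0.05). Muscle genes summed to 10206 to 14839 CPM on poor diet and 7420 to 13874 CPM on standard diet, with 15 of 20 values above 0. Midgut genes summed to 14.1 to 3628 CPM on poor diet and 14.9 to 16337 CPM on standard diet, with 4 of 18 values above 0, and germline genes summed to 22.2 to 1225 CPM on poor diet and 19.9 to 2320 CPM on standard diet, with 8 of 14. In none of these 5 lists was a marker at 0 in all libraries. With the midgut and germline scores as covariates, 7 of the 8 neuron marker genes kept a value above 0, with a median of 0.25. The part of fat body, glia and muscle in the diet values was not tested.

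The regime comparison asked whether Selected and Control populations differed over both diets. None of the 8 genes passed edgeR's quasi-likelihood test on the summed libraries of 6 Selected and 6 Control populations, where 0.0295% of all genes did. None had an unadjusted p below 0.05, against 10.7% of all genes. None passed in DESeq2, limma or edgeR with marker covariates, where 2.17%, 1.23% and 0.0196% of all genes did. For all 8 genes the population means of the regimes overlapped, while 0.432% of all genes had every Selected mean above and 0.363% every Selected mean below the Control means. Values were above 0 in 4 of 8 genes, against 51.7% of all genes. The largest positive values were in cac, at 0.28 ± 0.25 (SE, edgeR adjusted p = 0.740), and nSyb, at 0.27 ± 0.20 (SE, edgeR adjusted p = 0.688). Population means of nSyb were 7.20, 13.4 and 16.8 CPM (lowest, median and highest) in Selected populations, against 7.76, 9.64 and 13.7 CPM in Control populations, so that the groups overlapped. The calcium sensor gene Syt1 had the lowest value, -0.23 ± 0.18 (SE, edgeR adjusted p = 0.705), with population means of 9.85, 14.8 and 21.2 CPM in Selected populations, against 13.3, 16.6 and 25.01 CPM in Control populations. These values moved with single populations: with 1 left out in turn, Syt1 ranged from -0.33 without S3 to -0.090 without C2, and cac from 0.16 without S3 to 0.47 without C2. The least difference was in elav, at -0.02 ± 0.10 (SE, edgeR adjusted p = 0.953), whose means were 16.7 ± 1.24 CPM in Selected and 16.6 ± 1.90 CPM in Control populations (SD, n = 6 each). The fitted value and these means of elav differ in sign, and both differences are smaller than their error.

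Germline and hemocyte values lay on 1 side by regime: 14 of 14 germline genes had a value above 0, with a median of 1.01 and summed levels of 34.8 to 2320 CPM in Selected and 19.9 to 2267 CPM in Control libraries. Of 9 hemocyte genes 0 had a value above 0, with a median of -0.38 and summed levels of 1394 to 2125 CPM in Selected and 1357 to 2739 CPM in Control libraries. No gene of either list passed in edgeR, with 0 germline and 4 hemocyte genes at an unadjusted p below 0.05, and none was at 0 in all libraries. With germline and midgut scores as covariates, 6 of the 8 neuron marker genes had a regime value above 0. The part of hemocytes was not tested.

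None of the 154 other nervous system genes passed the regime test either, and 11, or 7.14%, had an unadjusted p below 0.05, against 10.7% of all genes. Closest was tau, the microtubule-associated protein of axons, with 28.4 ± 2.12 CPM in Selected and 42.2 ± 6.18 CPM in Control populations (SD, n = 6 each, log2 fold change -0.61 ± 0.11, SE, edgeR adjusted p = 0.0913). Next was Trhn, the neuronal enzyme of serotonin synthesis, with 2.56 ± 0.645 CPM in Selected and 6.04 ± 2.34 CPM in Control populations (SD, n = 6 each, log2 fold change -1.27 ± 0.27, SE, edgeR adjusted p = 0.147).

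No difference in diet response between regimes was detected for the 8 genes. The interaction term was -0.34 to 0.08 on the log2 scale, with 1 of 8 above 0, against 44.8% of all genes, and every edgeR adjusted p was 1.00 after rounding. Over all genes 0% passed and 1.52% had an unadjusted p below 0.05, none of them among the 8, and DESeq2 called 1 gene, or 0.00982%, also not among them. Within Selected populations the diet values of the 8 genes were 0.04 to 0.50, with elav at 0.47 ± 0.18 (SE, edgeR adjusted p = 0.419). Within Control populations they were 0.07 to 0.77, with elav at 0.38 ± 0.12 (SE, edgeR adjusted p = 0.920). None passed in either arm, where 0.628% of all genes did in Selected and 0% in Control populations, and at an unadjusted p below 0.05 stood 2 of the 8 in Selected populations, against 10.6% of all genes, and 3 in Control populations, against 3.86%. All 8 values were above 0 in both arms, against 47.8% of all genes in Selected and 46.8% in Control populations. Selected against Control within poor diet gave -0.22 to 0.24, and within standard diet -0.17 to 0.55, again with none passing, where 0.0589% of all genes did in poor and 0.00982% in standard diet. Each had 5 of the 8 values above 0, against 53.3% of all genes in poor and 57.3% in standard diet, and none at an unadjusted p below 0.05, against 9.91% and 6.38%.

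Across populations, the 8 genes did not move as 1 block. Of the 28 pairs, correlated over 12 population means of log2 CPM, 20 were positive, with r from -0.55 to 0.90 and a median of 0.21. Adjusted over the 28 pairs, 2 passed on Pearson's r and 3 on Spearman's rho (permutation test with 100000 resamples, two-sided). The vesicle SNARE gene nSyb and the scaffold gene brp gave r = 0.90 (permutation p = 8.00e-05, adjusted p = 0.00224) and rho = 0.87 (permutation p = 0.000530, adjusted p = 0.0148), and r was 0.86 without S2 and S3, the 2 populations farthest from the median of nSyb. The 2 channel genes, para and cac, gave r = 0.81 (permutation p = 0.00150, adjusted p = 0.0210) and rho = 0.80 (permutation p = 0.00310, adjusted p = 0.0315), with r = 0.77 without C4 and S6. Within regimes, nSyb with brp gave 0.89 over 6 Selected and 0.94 over 6 Control populations, and para with cac 0.97 over Selected and 0.65 over Control populations. The pair of nSyb and Rab3 passed on rho, at 0.79 (permutation p = 0.00338, adjusted p = 0.0315), and not on r, at 0.69 (permutation p = 0.0110, adjusted p = 0.103), with r = 0.69 without S2 and S3 as well.

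Over population means, the r of Syx1A was -0.55 with para and -0.47 with cac (adjusted permutation p = 0.201 and 0.301), and elav had r between -0.05 and 0.26 with the 7 other genes. Over the 24 libraries, each gene was also set against the mean of the other 7, as a description with no test: r was 0.84 for brp, 0.79 for nSyb, 0.67 for para, 0.62 for cac and for Rab3, 0.60 for elav, 0.47 for Syt1 and 0.18 for Syx1A. Without the 3 high libraries the order changed: r was 0.72 for elav, 0.69 for brp, 0.63 for nSyb, 0.46 for Syx1A and for para, 0.44 for Rab3, 0.33 for cac and -0.00 for Syt1.

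**Figure D5:**
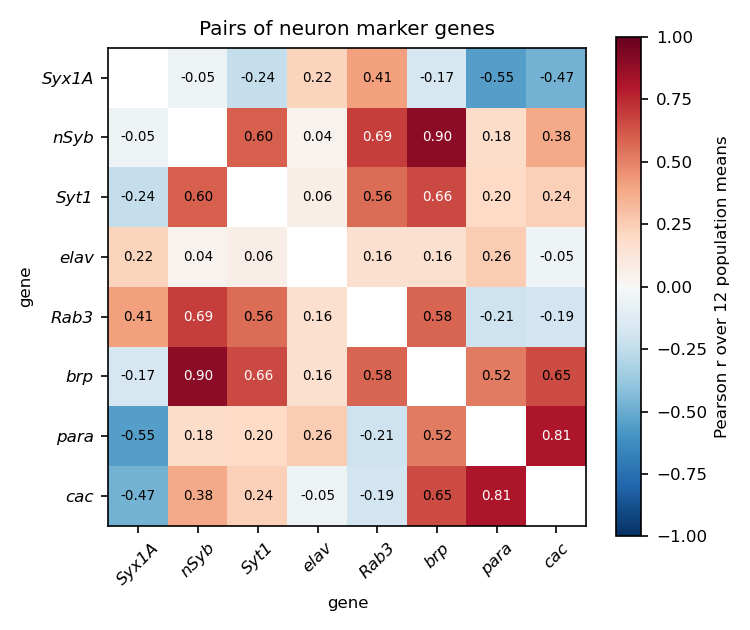
Pearson's r between the log2 CPM of each pair of genes over 12 population means, with genes in order of TPM. The values for nSyb with brp (0.90) and for para with cac (0.81) are the highest of the 28, and the row of Syx1A holds the lowest, -0.55 with para.

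Each gene was also correlated with the mean log2 CPM of germline, midgut, muscle, glia and hemocyte lists over the 12 populations, 40 relations in all, of which 2 passed on r and 3 on rho. Both that passed on r were with the glial list: Rab3 at r = 0.89 (permutation p = 9.00e-05, adjusted p = 0.00180) and rho = 0.89 (permutation p = 0.000110, adjusted p = 0.00340), and nSyb at r = 0.88 (permutation p = 5.00e-05, adjusted p = 0.00180) and rho = 0.91 (permutation p = 0.000170, adjusted p = 0.00340). Without S1 and C6, r was 0.74 for Rab3 and 0.86 for nSyb. Within Selected and Control populations r was 0.99 and 0.78 for Rab3, and 0.95 and 0.89 for nSyb. Also past the threshold on rho was brp with the glial list, at rho = 0.80 (permutation p = 0.00244, adjusted p = 0.0325) and r = 0.72 (permutation p = 0.00591, adjusted p = 0.0591). With the midgut list, para had r = -0.76 (permutation p = 0.00385, adjusted p = 0.0513), and cac had r = -0.70 (permutation p = 0.0125, adjusted p = 0.10), and neither passed.

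Outside the 8 genes themselves, of which 1 (brp) came between nAChRalpha7 and CG4467 in this order, the 10 genes whose log2 CPM over 24 libraries was most like the mean of the 8 were unc-104, sif, dpr12, CG42540, DopEcR, CG42784, Rim, nAChRalpha7, CG4467 and onecut. The kinesin gene unc-104, which carries synaptic vesicle precursors along axons, had r = 0.94 and averaged 40.4 CPM, and onecut, a transcription factor gene of neurons, had r = 0.88. Rim encodes an active zone protein, DopEcR a receptor for dopamine and ecdysone, and nAChRalpha7 an acetylcholine receptor subunit. Without the 3 high libraries, r of these 10 genes was 0.78 to 0.90. Among the 100 genes outside the 8 most like the mean, 30 were in the 7 nervous system lists, which hold 1.51% of the 10176 other genes tested. The libraries share populations and sequencing, so these values describe likeness and carry no test.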

How the data were processed

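RNA from 24 carcass samples was sequenced as 150 bp single reads on 2 lanes, per the labels' protocols. The authors quantified reads with kallisto 0.46.2 on BDGP6, per the submitters' processing notes, and deposited estimated counts per transcript for each library. The deposited files also give TPM, estimated counts divided by transcript length and scaled to a common total per library, per the file headers. Read strand was not given in the sources used here, nor was the uncertainty of the transcript estimates. The deposited series-wide normalised table was not used.

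Of 30944 transcripts, 30811 were joined to genes of the annotation BDGP6.54 (release 115); the other 133 held 0.282% of counts on average. Estimated counts were summed over 14220 genes and rounded to whole numbers. With R 4.3.3 and edgeR 4.0.16, TMM scaling and filterByExpr left 10184 genes. The regime was tested on 6 against 6 population sums, and diet and the interaction on 24 libraries with population as block, by quasi-likelihood tests with Benjamini-Hochberg adjustment over all genes at 0.05. DESeq2 1.42.0, limma 3.58.1, RLE scaling, no filter, covariates, other blocks and left-out populations were alternatives. The fits were also run on simulated counts with a fixed dispersion and no population effect, which cannot show how they perform on paired populations. CPM used TMM library sizes, with a prior of 0.5 on the log2 scale.

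The block pairs the 2 libraries of a population, named so in the characteristics. Their deviations from group means correlated at 0.216 on average, from -0.226 to 0.651. For the pairs that the titles name, the average was 0.161, from -0.363 to 0.550. Each population gave 1 pooled sample per diet, so the tests measure the spread between populations. The text names the 8 genes, list genes that passed a comparison or were among the 3 of smallest p in their list, and the 10 genes most like the 8; other genes were chosen after their values were seen. The 8 genes and the lists were chosen with earlier results of these data known.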

Additional observations from a re-analysis of the deposited data

Results flagged for a closer look

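Single libraries stood far from the other 5 of their group in 5 of the 32 combinations of gene and group examined. The rule flags about 1 in 20 among independent, normally distributed values. Values of genes measured in the same libraries are not independent, so the 5 cannot be set against that rate. S3 on poor diet had 25.9 CPM of nSyb, against 8.52 to 13.6 CPM in the other Selected libraries on poor diet. The same library had 32.2 CPM of Syt1, against 9.02 to 15.3 CPM, and 13.3 CPM of brp, against 3.23 to 4.78 CPM. Among Control libraries on poor diet, C2 had 30.1 CPM of Syt1, against 14.1 to 17.7 CPM, and C3 had 41.9 CPM of Syx1A, against 18.1 to 22.2 CPM.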

How the results depend on the processing

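The number of genes called for diet was 115, and it was 548 with DESeq2, 463 with germline and midgut scores as covariates, 21 with no replicate block and 0 without populations S2, S3 and C2, a setting chosen after seeing the data. Leaving out 1 population at a time gave 3 (without Selected replicate 1) to 139 (without Control replicate 5). For regime, 3 genes were called, with 221 by DESeq2, 125 by limma, 0 without populations S2, S3 and C2, and 1 to 36 when 1 population was left out, 36 without Control replicate 4. With the replicate number as a block, 0 genes and none of the 8 were called for regime. Selected and Control populations of the same number correlated at -0.247 on average. Pairs of different numbers were not set beside this, so whether the numbers pair populations was not tested. The interaction had 0 genes called and 1 with DESeq2. The causes were not tested.

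Among the 8 genes, values that changed sign were small. With covariates, the regime value of elav was 0.10 and of Rab3 0.11, the diet value of Syt1 -0.037 and its interaction 0.18. Without populations S2, S3 and C2, the regime value of elav was 0.050 and the diet value of Syt1 -0.056. Limma gave Rab3 -0.12 for regime within standard diet, and by TPM the regime difference in the share of the leading nSyb transcript was 0.21 percentage points, against -2.87 by counts. With 1 population left out, ranges that crossed 0 were -0.093 to 0.15 for diet in Syt1, -0.086 to 0.032 for regime in elav, -0.23 to 0.023 for regime in Rab3, and for the interaction -0.066 to 0.21 in elav, -0.34 to 0.20 in Syt1 and -0.19 to 0.046 in Syx1A. Other ranges with 1 population left out kept their sign but were wide, as 0.037 to 0.27 for diet in Rab3, 0.19 to 0.48 for diet in brp, 0.065 to 0.53 for regime in brp, 0.023 to 0.28 for regime in para and -0.20 to -0.025 for regime in Syx1A. At 41 to 1341 counts per library, counting error is largest for cac, brp, para and Rab3. Directions, pairs and regime groups rest on the characteristics, which the titles contradict.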
